A study of Mus musculus with 8 samples.

Results

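PPARα, encoded by Ppara, is the nuclear receptor through which fatty acids released in fasting switch on fat oxidation and ketone body production in liver. The genes of that programme described here were the transcription factors Ppara and Creb3l3, the PPARα targets Pdk4, Vnn1 and Fgf21, and the ketone body enzymes Bdh1, Oxct1 and Acat1. They were chosen with earlier results of these data known and taken by gene symbol. All 8 were found among the 19348 genes of the count table. RNA-seq had been carried out on liver and epididymal white adipose tissue (eWAT) of C57BL/6 mice, 12 weeks old, on a normal diet and fasted for 16 h. Each tissue had 2 libraries labelled Crtc1+/+ (WT) and 2 labelled Crtc1-/- (KO), 8 in all. The knockout was whole-body, made with Cas9 and guides against exons 2 and 4 of Crtc1, a coactivator of CREB, and the WT mice were littermates from heterozygous crosses. By the methods of the study the mice were male, and the replicates were biological, from 2 mice of each genotype. Which liver and eWAT libraries share a mouse is given neither there nor by the labels.

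In fasting, PPARα pairs with RXR on DNA and works with CREB3L3, a membrane-bound factor released by proteolysis, to raise the hormone Fgf21. PDK4 phosphorylates pyruvate dehydrogenase and so spares glucose, and vanin-1 (Vnn1) releases cysteamine and pantothenic acid from pantetheine. ACAT1 and BDH1 take part in the making of ketone bodies in hepatocytes. Hepatocytes use few of them, since OXCT1, the enzyme that reactivates acetoacetate in other tissues, is scarce in hepatocytes. White adipocytes run many of the same target genes through PPARγ.

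The RefSeq promoters of GRCm38.p6 (250 bases before to 50 after the annotated start) were available for 6 of the 8 genes, 8 promoters in all, with none for Vnn1 and Acat1. The promoters of Pdk4, Fgf21 and Creb3l3 are shown because Pdk4 gave one of the 2 genotype calls below, and because Fgf21 is a target of both PPARα and CREB3L3. Capitals mark matches on either strand to AGGTCA (the unit of a PPAR response element), TGACG (the core of a CRE, the CREB site), the E-box CACGTG, the CCAAT box and the TATA box TATAAA.
Pdk4, chr6:5496229-5496528, minus strand: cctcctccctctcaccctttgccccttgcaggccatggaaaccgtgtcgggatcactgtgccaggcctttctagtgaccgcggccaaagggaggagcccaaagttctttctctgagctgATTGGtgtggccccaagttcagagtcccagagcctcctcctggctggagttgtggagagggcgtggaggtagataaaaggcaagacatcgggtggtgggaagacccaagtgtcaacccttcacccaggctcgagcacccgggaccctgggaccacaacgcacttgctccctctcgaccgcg
Fgf21, chr7:45615441-45615740, minus strand: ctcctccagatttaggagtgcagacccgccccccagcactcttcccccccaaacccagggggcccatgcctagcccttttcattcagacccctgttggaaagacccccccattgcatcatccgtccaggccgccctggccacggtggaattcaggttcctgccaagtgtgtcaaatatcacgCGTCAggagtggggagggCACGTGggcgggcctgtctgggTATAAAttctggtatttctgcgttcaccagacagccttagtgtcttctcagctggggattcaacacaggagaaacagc
Creb3l3, chr10:81092542-81092841, minus strand: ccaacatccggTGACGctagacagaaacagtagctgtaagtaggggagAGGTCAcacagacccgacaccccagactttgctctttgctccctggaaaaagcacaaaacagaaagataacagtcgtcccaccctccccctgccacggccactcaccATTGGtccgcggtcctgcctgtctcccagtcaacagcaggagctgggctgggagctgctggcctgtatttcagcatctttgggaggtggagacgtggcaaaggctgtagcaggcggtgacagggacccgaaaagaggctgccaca

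The complete PPAR response element, 2 copies of AGGTCA in the same direction with 1 base between them, was in none of the 8 promoters and in 0.0396% of all 32851 mouse promoters of the table. A looser form, with AGGNCA in place of each AGGTCA, was also in none, against 0.381% of all promoters. A single AGGTCA occurred only in the Creb3l3 promoter shown, 202 bases before the start, and in 16.3% of all promoters. TGACG, which is also part of the full CRE TGACGTCA, was found in the promoters of Ppara and Fgf21 and in the Creb3l3 promoter shown. It was in 20.8% of all promoters, while TGACGTCA was in none of the 8 and in 1.79% of all. The Creb3l3 promoter shown lies within the annotated gene. The promoter at the start of that gene (chr10:81098823-81099122) held none of the marked matches. In the Fgf21 promoter the TGACG match lay 68 bases before the start, a CACGTG 50 bases before it and a TATAAA 28 bases before it, letters held by 7.15% (CACGTG) and 13.6% (TATAAA) of all promoters. In the Pdk4 promoter only CCAAT was matched, 131 bases before the start, as in 37.4% of all promoters. These are letters in a window of 300 bases and were not tested as binding sites.

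The libraries held 16560085 to 19721481 counts, so that the limit of detection of 3 counts lay at 0.152 to 0.181 CPM (counts scaled to the library total). CPM values below are scaled by TMM within each tissue unless stated. All 64 values of the 8 genes were whole numbers in the deposited table. Crtc1 was higher in both libraries labelled Crtc1-/- of liver (22.1 and 18.0 CPM in replicates 1 and 2 against 11.7 and 9.86). In eWAT it was at 58.5 and 33.6 CPM in KO against 32.5 and 33.7 in WT by TMM. By the library total alone it was at 57.6 and 27.5 against 36.9 and 36.9, and by FPKM at 10.6 and 4.95 against 6.69 and 6.78, so that KO replicate 2 was below both WT libraries on those scales. A count over the whole gene includes exons outside the targeted part and so does not check the labels. The tissue labels were checked by marker genes. The 13 hepatocyte markers took 19.7% to 23.96% of counts in liver, 0.138% to 0.683% in 3 eWAT libraries, and 10.8% in eWAT KO replicate 2, which therefore stands apart. The 12 adipocyte markers took 0.281% and 0.447% in eWAT WT, against 4.85% and 2.36% in eWAT KO, and none of them was at 0 in eWAT. The 12 epididymis markers took 6.89% and 8.14% in eWAT WT, against 0.0023% and 0.0011% in eWAT KO, where Lcn6, Defb15, Defb41 and Spink12 were at 0 in both libraries. The 6 endothelial markers took 0.0271% and 0.0298% in eWAT WT, against 0.457% and 0.265% in eWAT KO. The eWAT groups thus differ in marker content as well as in label, and the part of this difference in the results below was not tested. In such bulk RNA, fewer cells of a type and less RNA per cell cannot be told apart.

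Levels are compared between genes by FPKM, which is scaled by transcript length. In WT liver, Creb3l3 was highest (198 and 160 FPKM in replicates 1 and 2), followed by Acat1 (94.1 and 125 FPKM), Bdh1 (92.5 and 101), Vnn1 (41.6 and 43.6), Ppara (7.79 and 10.7), Fgf21 (6.67 and 2.19), Pdk4 (1.49 and 0.26) and Oxct1 (0.35 and 0.38). Acat1 and Bdh1 overlapped in this order, as did Pdk4 and Oxct1, whereas the other neighbours were separated in both libraries. In WT eWAT the order was different. Acat1 (27.6 and 31.6 FPKM) and Oxct1 (21.4 and 27.1 FPKM) were the highest there, Bdh1 followed at 9.91 and 4.83 FPKM, and Ppara was lowest by its mean, at 1.12 and 1.07 FPKM. Vnn1 (2.97 and 4.2 FPKM), Pdk4 (1.68 and 4.32), Creb3l3 (5.06 and 0.69) and Fgf21 (1.71 and 0.57) lay between them. From Vnn1 down to Ppara each gene overlapped with the next in this order, whereas Acat1, Oxct1, Bdh1 and Vnn1 were separated from each other in both libraries. In eWAT KO, Acat1 was again highest by its mean (44.4 and 62.8 FPKM). Creb3l3 came next by its mean, but at 1.74 and 70.5 FPKM it was above Acat1 in replicate 2 and far below it in replicate 1. Vnn1 (26.8 and 35.4 FPKM) lay within the range of Oxct1 (37.1 and 15.8 FPKM). Pdk4 (23.1 and 40.5 FPKM) lay within it in replicate 1 and above it in replicate 2.

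**Figure D1:**
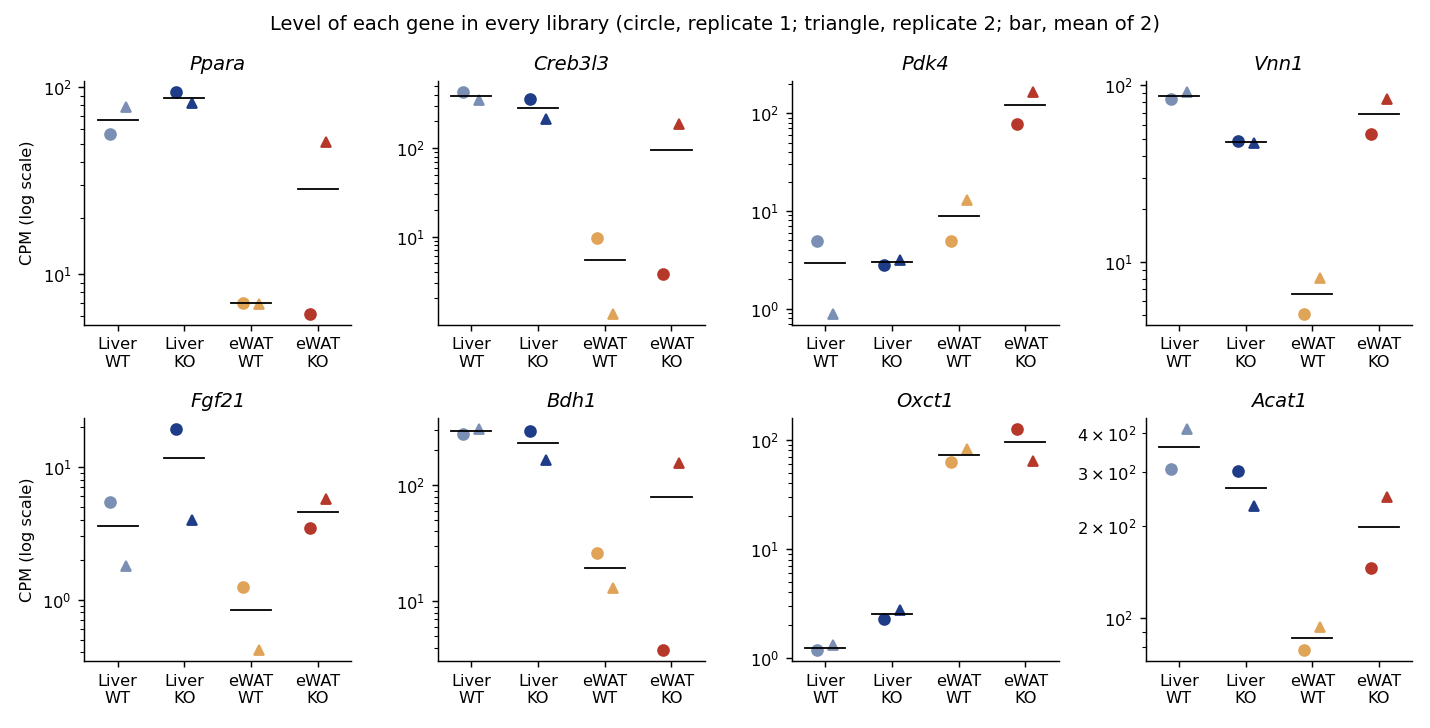
Level of the 8 genes in CPM (log axis, scaled by TMM within each tissue) in the 4 groups, with a circle for replicate 1, a triangle for replicate 2 and a bar for the mean of 2. Pdk4 and Vnn1 are high in both eWAT KO libraries, whereas Ppara, Creb3l3 and Bdh1 are high in eWAT KO replicate 2 alone.

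In eWAT, Pdk4 and Vnn1 were higher in the libraries labelled Crtc1-/-, and they were the only genes of the 8 that passed the test. That is 2 of 8 called at an adjusted p under 0.05 by edgeR's quasi-likelihood test, where 12.2% of the 15391 genes tested were called in either direction and 6.65% were called higher. At the study's threshold for a DEG (an absolute log2 fold change over 1 and an unadjusted p under 0.01) they were again Pdk4 and Vnn1, where 15.9% of all genes passed. The fitted change was upward for all 8 genes, against 48.5% of all genes, but for Ppara, Creb3l3 and Bdh1 this rested on eWAT KO replicate 2. The groups did not overlap for 4 of the 8, Pdk4, Vnn1, Fgf21 and Acat1, all higher in KO, as was the case for 31.3% of all genes.

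**Figure D2:**
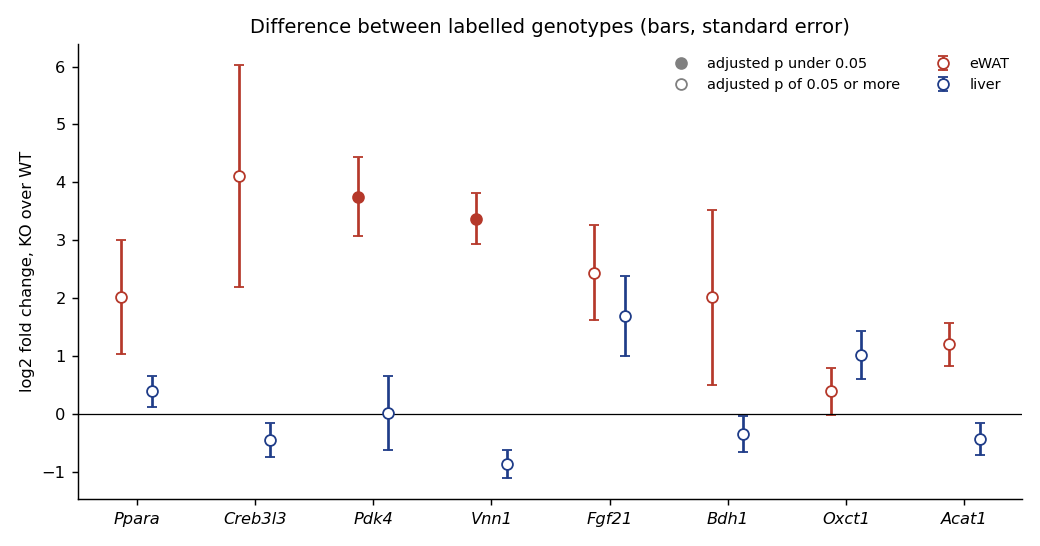
Log2 fold change of KO over WT for the 8 genes in eWAT and in liver (points, with bars for the standard error, 2 libraries a group). Only Pdk4 and Vnn1 in eWAT are filled, at 3.76 and 3.37, and no gene in liver passed the threshold.

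Pdk4 (chr6:5483351-5496309, minus strand, GRCm38, GENCODE M21) was at 4.91 and 13.01 CPM in WT eWAT (replicates 1 and 2) and at 77.7 and 165 CPM in KO eWAT. Every KO library was thus several times above every WT library, a 13.5-fold difference (log2 fold change 3.76, SE 0.68, adjusted p = 0.0343). Without KO replicate 2 the difference was 3.06 on the log2 scale (adjusted p = 0.0422). It lost the call without WT replicate 1 (3.27, adjusted p = 0.183) and without WT replicate 2 (4.64, adjusted p = 0.252), and with the replicate number as a block (3.82, adjusted p = 0.0543), in each of which no gene of the whole table passed. It was past the threshold in 10 of 13 alternatives, over which its log2 fold change ran from 3.06 to 4.64 and its adjusted p from 4.5e-07 to 0.252. The 6 skeletal muscle markers, a tissue that uses Pdk4 in fasting, took 0.0519% and 0.0313% of counts in WT eWAT and 0.0988% and 0.0714% in KO eWAT. The 12 adipocyte markers differed more, at 0.281% and 0.447% in WT eWAT and 4.85% and 2.36% in KO eWAT. The part of either list in the Pdk4 difference was not tested. Scaled by the library total alone, the CPM of Pdk4 was 4526% of its mean in liver in KO replicate 2 and 2571% in KO replicate 1. The hepatocyte markers summed to 50.8% and 1.71% on that scale.

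Vnn1 (chr10:23894688-23905343, plus strand) was at 5.10 and 8.14 CPM in WT eWAT and at 53.1 and 83.7 CPM in KO eWAT. The groups were again far apart, by 10.3-fold (log2 fold change 3.37, SE 0.44, adjusted p = 0.0208). Without KO replicate 2 the log2 fold change was 2.96 (adjusted p = 0.0217), and the call was lost without WT replicate 1 (3.11, adjusted p = 0.162) and without WT replicate 2 (3.77, adjusted p = 0.252), and with the replicate block (3.37, adjusted p = 0.0543). Its adjusted p ran from 5.9e-10 to 0.252 over the 13 alternatives, 10 of them past the threshold, with a log2 fold change of 2.96 to 3.77. Percentages of the mean of the 4 liver libraries were again scaled by the library total alone. Vnn1 was at 77.6% in KO replicate 1, where the hepatocyte markers were at 1.71%, and at 102% in KO replicate 2, where they were at 50.8%. The part of the adipocyte markers in the Vnn1 difference was not tested.

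Fgf21 (chr7:45613886-45615490, minus strand) encodes a fasting hormone that liver secretes and that adipose tissue also makes. It had only 26 and 8 counts in WT eWAT and 63 and 82 counts in KO eWAT, or 1.25 and 0.415 CPM against 3.46 and 5.69 CPM. The groups did not overlap, but the difference did not pass the test (log2 fold change 2.44, SE 0.82, adjusted p = 0.116). Acat1 (chr9:53580522-53610382, minus strand), the mitochondrial acetoacetyl-CoA thiolase that acts in both the making and the use of ketone bodies, behaved likewise. It was at 78.3 and 93.0 CPM in WT eWAT and at 146 and 249 CPM in KO eWAT, with no overlap and an adjusted p of 0.0987 (log2 fold change 1.202, SE 0.37). Without KO replicate 2 these differences were 2.04 for Fgf21 and 0.73 for Acat1 on the log2 scale.

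Oxct1 (chr15:4026383-4155344, plus strand) was abundant in all 4 eWAT libraries, at 63.0 and 82.3 CPM in WT and at 126 and 64.5 CPM in KO. The groups overlapped (log2 fold change 0.39, SE 0.41, adjusted p = 0.527), and without KO replicate 1 the sign turned to -0.16. The annotation has 2 genes on the opposite strand within Oxct1 (BC037032 and Gm15632) and 1 within Bdh1 (Gm15743), and whether the counting used strand is not given in the sources used here.

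Ppara, Creb3l3 and Bdh1 formed another pattern, high in eWAT KO replicate 2 and low in the other 3 eWAT libraries. Ppara (chr15:85734983-85802819, plus strand) was at 7.02 and 6.95 CPM in WT and at 6.15 and 50.7 CPM in KO. Creb3l3 (chr10:81084324-81098874, minus strand) was at 9.52 and 1.35 CPM in WT and at 3.79 and 185 CPM in KO. Bdh1 (chr16:31422280-31458901, plus strand), which reduces acetoacetate to β-hydroxybutyrate, was at 25.9 and 13.1 CPM in WT and at 3.79 and 154 CPM in KO. In each case one KO library was above both WT libraries and the other was within or below them. The fitted changes were 2.02 (SE 0.99) for Ppara, 4.12 (SE 1.92) for Creb3l3 and 2.02 (SE 1.52) for Bdh1, with adjusted p of 0.218, 0.204 and 0.384. Without KO replicate 2 all 3 changed sign, to -0.21, -0.50 and -2.37 (adjusted p = 0.845, 0.801 and 0.0819). Over the 13 alternatives the adjusted p ran from 0.0077 to 0.845 for Ppara, from 0.0198 to 0.801 for Creb3l3 and from 0.0118 to 0.915 for Bdh1.

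The level of these genes in eWAT KO replicate 2 was set beside that of the hepatocyte markers in the same library, each as a percentage of its mean CPM in the 4 liver libraries, here scaled by the library total alone. The 13 markers lay between 37.1% and 64.1%, with a median of 54.6%. Ppara was at 53.3%, Creb3l3 at 45.1% and Bdh1 at 48.5%, all within the range of the markers. Fgf21 (60.9%) also lay within it and Acat1 (65.2%) just above it. Vnn1 (102%), Oxct1 (2778%) and Pdk4 (4526%) lay above it. In KO replicate 1, in which the marker sum was at 1.71% of liver, Creb3l3 was at 1.11% and Bdh1 at 1.44%, but Ppara was at 7.78%, Fgf21 at 44.6% and Acat1 at 46.0%. Whether hepatocyte RNA contributes to the fitted changes was not tested. Leaving the library out cannot decide it, since that removes everything in the library.

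**Figure D3:**
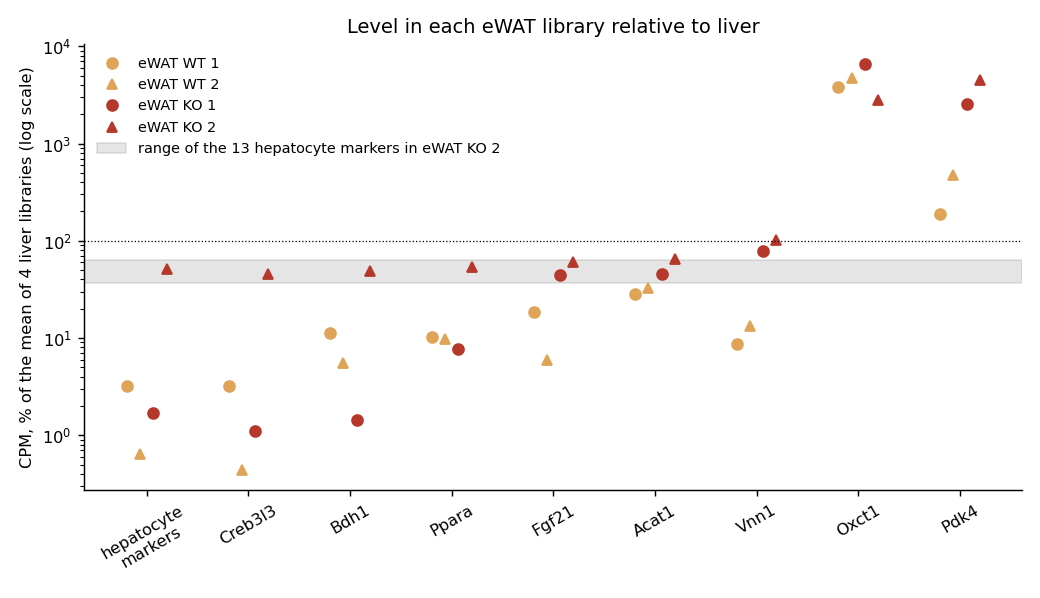
CPM (scaled by the library total alone) of each gene and of the sum of 13 hepatocyte markers in the 4 eWAT libraries, as a percentage of the mean of the 4 liver libraries (log axis, dotted line at 100%). The grey band is the range of the single hepatocyte markers in eWAT KO replicate 2, 37.1% to 64.1%, and the points of that library for Creb3l3, Bdh1, Ppara and Fgf21 lie within it.

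In liver, the tissue in which PPARα acts most in fasting, none of the 8 genes passed the test, where 0.0854% of the 11707 genes tested were called. At an unadjusted p under 0.05 there were 3 of the 8, Vnn1, Fgf21 and Oxct1, against 17.3% of all genes. None reached the DEG threshold, which 4.27% of all genes did, and DESeq2 called 1 of the 8, against 2.66% of all genes. Vnn1 was lower in KO, at 83.4 and 91.6 CPM in WT and at 48.6 and 47.4 CPM in KO. The replicates lay close together and the groups did not overlap, with a fitted ratio of 1.82 (log2 fold change -0.87, SE 0.24, unadjusted p = 0.0057, adjusted p = 0.164). Over the 13 alternatives it stayed negative, from -0.94 to -0.67, and its adjusted p ran from 0.0454 to 0.679.

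Oxct1 was low in liver but above the limit of detection of 3 counts. It had 23 and 25 counts in WT and 44 and 47 in KO, or 1.18 and 1.31 against 2.30 and 2.74 CPM. The KO libraries were both higher, but the difference did not pass (log2 fold change 1.01, SE 0.41, adjusted p = 0.262). Fgf21 was at 5.39 and 1.78 CPM in WT and at 19.3 and 3.97 CPM in KO. The groups overlapped, and the fitted change rested on KO replicate 1 (1.70, SE 0.69, adjusted p = 0.262), which was 0.16 without it and 2.42 (adjusted p = 0.0204) without KO replicate 2. The adjusted p of Fgf21 ran from 0.0204 to 0.865 over the alternatives.

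Ppara was at 56.3 and 78.2 CPM in WT liver and at 94.3 and 82.0 in KO liver, a difference in which the groups did not overlap but which missed the threshold (0.39, SE 0.27, adjusted p = 0.462). Creb3l3 was at 429 and 350 CPM in WT and at 355 and 216 in KO (-0.45, SE 0.30, adjusted p = 0.451). Among the ketone body enzymes, Bdh1 was at 276 and 306 CPM in WT and at 293 and 166 in KO (-0.34, SE 0.31, adjusted p = 0.583), and Acat1 was at 307 and 414 in WT and at 301 and 231 in KO (-0.44, SE 0.28, adjusted p = 0.426). For Creb3l3, Bdh1 and Acat1 the lowest of the 4 libraries was KO replicate 2. Pdk4 was low in fasted liver, at 4.98 and 0.892 CPM in WT and at 2.83 and 3.15 CPM in KO (0.02, SE 0.64, adjusted p = 0.988). The skeletal muscle markers took 0.0492% and 0.00087% of counts in WT liver and 0.0630% and 0.0459% in KO liver, lowest in WT replicate 2, where Pdk4 was also lowest, and their part in its level was not tested. Groups did not overlap for 4 of the 8 genes in liver, where 52.1% of all genes did not.

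Whether the genotype difference itself differed between eWAT and liver was read from the interaction term of the fit to the 8 libraries together. Only Vnn1 passed, 1 of 8 against 6.94% of 15587 genes, with a difference of 4.18 on the log2 scale (SE 0.51, adjusted p = 0.0104). It was higher in both KO libraries of eWAT and lower in both KO libraries of liver. This call was past the threshold in 12 of 16 alternatives, with adjusted p from 8.9e-11 to 0.0604. It was lost when any of the 4 liver libraries was left out. For Pdk4 the difference was 3.70 (SE 1.15, adjusted p = 0.0999) and for Acat1 1.59 (SE 0.60, adjusted p = 0.148). Those of Ppara (1.63), Creb3l3 (4.56) and Bdh1 (2.37) did not pass and turned negative without eWAT KO replicate 2, to -0.60, -0.14 and -2.06. Fgf21 (0.66) and Oxct1 (-0.73) did not pass either.

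Between the tissues of WT mice, 7 of the 8 genes differed at an adjusted p under 0.05, where 54.9% of all genes did. The 6 called lower in eWAT, against 19.8% of genes called lower, were Creb3l3 (log2 fold change -7.36, SE 1.94, adjusted p = 0.0184), Bdh1 (-5.11, SE 1.53, adjusted p = 0.0274), Vnn1 (-4.94, SE 0.41, adjusted p = 5.4e-04), Ppara (-4.48, SE 0.95, adjusted p = 0.0086), Fgf21 (-3.29, SE 0.99, adjusted p = 0.0281) and Acat1 (-3.29, SE 0.46, adjusted p = 0.0020). Oxct1 was the one gene called higher (4.64, SE 0.35, adjusted p = 5.1e-04), and Pdk4 did not differ beyond its spread (0.38, SE 0.80, adjusted p = 0.697). Of the ketone body enzymes, Bdh1 and Acat1 were thus higher in liver, and Oxct1 was higher in eWAT. These values depend on the scaling, since the median of all genes was 0.61 by TMM and 2.003 by library size, but the direction of all 7 was the same under both. By library size 6 were called, against 75.9% of all genes, without Fgf21 (-1.90, adjusted p = 0.0945, in a range of 0.0011 to 0.147 over its 16 alternatives). Without Liver WT replicate 1 there were 4 calls (26.0% of all genes), and without eWAT WT replicate 2 there were 3 (31.5% of all genes).

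Within the KO libraries 3 of 8 genes were called between the tissues, where 27.8% of all genes were. Pdk4 was higher in eWAT (4.08, SE 0.87, adjusted p = 0.0171), as was Oxct1 (3.91, SE 0.33, adjusted p = 6.4e-04), and Acat1 was lower (-1.70, SE 0.43, adjusted p = 0.0285). Vnn1 was at 26.8 and 35.4 FPKM in KO eWAT and at 25.9 and 26.7 FPKM in KO liver, and its fitted difference was -0.76 by TMM (SE 0.35, adjusted p = 0.139) but 0.30 by library size, where the median of all genes rose from 0.20 to 1.33. Without eWAT KO replicate 2, 7 of the 8 genes were called, against 36.2% of all genes. Without Liver KO replicate 1 only 1 was, Oxct1, against 9.17% of all genes, and without Liver KO replicate 2 again Oxct1 alone, against 1654 of 16484 genes.

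The other genes of the programme were read from lists compiled by known function, also chosen with earlier results of these data known. Of 43 other PPARα targets in eWAT, 43 were fitted higher in KO and 16 were called, all higher, where 6.65% of all genes were called higher. Their median log2 fold change was 2.02, against -0.05 over all genes. The 6 called with the largest change were Angptl4, a secreted inhibitor of lipoprotein lipase (4.89, adjusted p = 0.0221), the lipid droplet proteins Plin2 (4.05, adjusted p = 0.0170), Cidec (4.04, adjusted p = 0.0211) and Plin5 (2.97, adjusted p = 0.0214), the mitochondrial carrier Ucp3 (3.66, adjusted p = 0.0279) and the monoglyceride lipase Mgll (3.20, adjusted p = 0.0251). Cidec is also one of the adipocyte markers, and many of these genes are expressed in adipocytes, whose markers took at most 0.447% of counts in WT eWAT and at least 2.36% in KO eWAT. The part of this in the list was not tested. Without eWAT KO replicate 2, 34 of the 43 were higher and 9 lower, with a median of 1.21 and 16 called higher, of which 15 were called with it, where 7.01% of all genes were called higher. Without eWAT KO replicate 1, 33 were called, all higher, against 9.84% of all genes. Without WT replicate 1 or WT replicate 2 edgeR called none, and 18 and 15 genes had an unadjusted p under 0.05, against 21.9% and 15.8% of all genes.

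In liver edgeR called none of the 42 genes of the list that were tested. The fitted value was below 0 for 33 and above 0 for 9, where 49.7% of all genes were below 0, and 17 had an unadjusted p under 0.05, against 17.3% of all genes. The median log2 fold change was -0.45, against 0.00 over all genes. Without KO replicate 1, 15 were called lower and 1 higher, where 5.59% of all genes were called lower and 6.92% higher. Without KO replicate 2, 3 were called lower and 1 higher, against 0.350% and 1.11% of all genes. The fitted interaction was above 0 for 41 of the 43 genes, as for 44.4% of all genes, and 11 were called, where 3.78% of all genes were called in that direction.

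**Figure D4:**
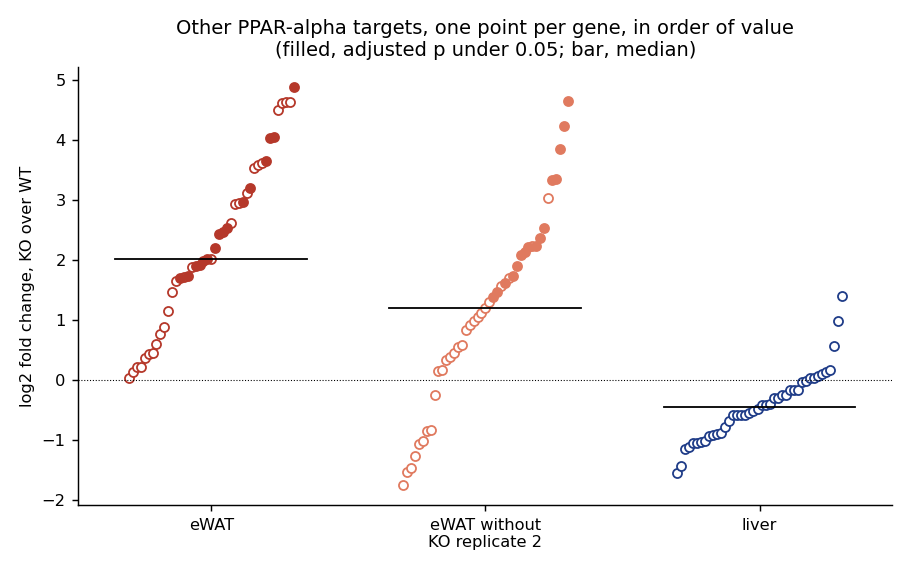
Log2 fold change of KO over WT for the other PPARα targets (one point per gene in order of value, filled at an adjusted p under 0.05, bar at the median) in eWAT, in eWAT without KO replicate 2, and in liver. The medians are 2.02, 1.21 and -0.45, and no liver gene is filled.

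Of all 15391 genes tested in eWAT, 5130 had an unadjusted p under 0.05. Among 7 other ketone body genes there, edgeR called none, and 4 had such a p. Their log2 fold changes were 1.23 for the acetoacetyl-CoA synthetase Aacs, 0.86 for Slc16a1, 1.12 for Slc16a7 and -0.06 for Slc16a6, which are monocarboxylate transporters, 0.20 for Bdh2, and -3.16 for Oxct2a and -3.77 for Oxct2b, the testis forms of Oxct1. Oxct2a and Oxct2b are near copies of each other, so the split of their reads is uncertain, and the sperm markers took 0.109% and 0.0484% of counts in WT eWAT against 0.01001% and 0.0011% in KO. In liver 5 of the 7 were tested and edgeR called none, with 2 at an unadjusted p under 0.05, against 17.3% of all genes. Slc16a1 was at -0.85 (SE 0.27, adjusted p = 0.203), Aacs at 0.90, Bdh2 at 0.76, Slc16a6 at 0.53 and Slc16a7 at 0.26.

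Of the 12 partners and coregulators of PPARs, 3 were called in eWAT, where 6.65% of all genes were called higher. All 3 were higher: Rxrg (3.595, adjusted p = 0.0268), Pparg (3.52, adjusted p = 0.0184) and Rxra (2.32, adjusted p = 0.0251). Pparg, the adipocyte receptor, was at 14.5 and 24.1 CPM in WT and at 254 and 188 CPM in KO, high in both KO libraries, unlike Ppara. In liver edgeR called none of the 12, and 1 had an unadjusted p under 0.05, against 17.3% of all genes. Genes of the pyruvate dehydrogenase complex, on which PDK4 acts, and of its phosphatases, which oppose it, were also read. EdgeR called none of 7 in eWAT and none of 6 in liver. In eWAT 0 had an unadjusted p under 0.05, against 5130 of 15391 genes, and in liver 2 had, against 17.3% of all genes. The eWAT values of the 7 were -0.73 for Pdha1, 0.65 for Pdhb, 0.06 for Dlat, 0.11 for Dld, 0.49 for Pdhx, -0.33 for Pdp1 and -0.14 for Pdp2. In liver Pdhx was at -1.16 (adjusted p = 0.134) and Dlat at -0.88 (adjusted p = 0.175), and Pdha1, Pdhb, Dld and Pdp2 lay between -0.40 and 0.02.

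Of the 5 receptors and coreceptors of the FGF21 pathway, Fgfr2 was lower in eWAT KO (-1.76, adjusted p = 0.0353), where 852 of 15391 genes were called lower. The coreceptor Klb was at 1.35 and 5.13 CPM in WT and at 24.2 and 26.9 CPM in KO eWAT, without passing (2.98, SE 0.72, adjusted p = 0.0607). Fgfr1 (1.35), Fgfr3 (0.74) and Fgfr4 (1.76) were not called. In liver edgeR called none of the 5 (1 at an unadjusted p under 0.05, against 17.3% of all genes). Klb was at -1.23 there (adjusted p = 0.159), Fgfr1 at 0.35, Fgfr2 at 0.40, Fgfr3 at -0.41 and Fgfr4 at -0.30. The 6 known targets of CREB3L3 were all fitted higher in eWAT KO, as were 48.5% of all genes. Only Cidec was called, where 6.65% of all genes were called higher. Apoc2 (4.22), Apoa4 (3.89), Apoa5 (3.66), Hamp (2.60) and Fgf21 (2.44) were not, and without KO replicate 2 only 3 of the 6 were higher. In liver edgeR called none, and 2 had an unadjusted p under 0.05, against 17.3% of all genes. The liver values were 1.70 for Fgf21, 1.63 for Hamp, 0.54 for Apoa4, 0.39 for Apoc2, 0.37 for Apoa5 and -1.04 for Cidec.

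The genes whose log2 CPM most resembled that of each of the 8 over the 8 libraries were ranked by Pearson's r among 15587 genes, as a description in which the points share tissue and library. Those nearest to Creb3l3 were Tmprss6, Tfr2 and Itih4 (r = 0.999 each), those nearest to Bdh1 were Gjb1, Lipc and Sec14l2 (0.998 each), and those nearest to Ppara were Prodh (0.998), Nqo2 (0.997) and Akr1c14 (0.997). Vnn1 was nearest to Bckdhb (0.996), Abhd15 (0.996) and Cluh (0.995), and Acat1 to Atp5f1 (0.998), Slc40a1 (0.996) and As3mt (0.996). Oxct1 was nearest to Bnc2 (0.999), Fhl1 (0.999) and Trim35 (0.997). Pdk4 had looser neighbours, Rapgef5 (0.959), Ucp3 (0.954) and Rep15 (0.950), and so had Fgf21, with S100a9 (0.982), Stk11 (0.969) and Zbtb48 (0.963).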

How the data were processed

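Tables of 19348 genes were deposited by the authors, one of estimated counts of reads without normalization and one of FPKM, which corrects for transcript length and sequencing depth. HISAT, Bowtie2 and GRCm38.p6 are named in the submitters' processing notes, and their versions and settings are not given in the sources used here. Of the estimated counts 5.44% to 9.98% per library were not whole, and counts were rounded. Genes were filtered (filterByExpr), scaled by TMM and tested by edgeR 4.0.16 (quasi-likelihood, R 4.3.3), within each tissue for the genotype comparisons and over all 8 libraries in 4 groups otherwise. P-values were adjusted by Benjamini-Hochberg over all genes tested and called under 0.05. Each SE was obtained from the log2 fold change and the F statistic. The study used limma after a between-array normalization whose input and transform are not given in the sources used here. Limma 3.58.1 on quantile-normalized log2(FPKM + 1) was an alternative, as were log2(FPKM + 0.1), DESeq2 1.42.0, other scalings and filters, the replicate number as a block, and leaving out each library. With 2 against 2, an exact permutation test cannot give a p under 0.333. Samples were grouped by their labels. Deviations of same-numbered samples from their group means correlated at r = -0.07 between the genotypes in eWAT, 0.06 between them in liver, 0.23 between the tissues in WT and 0.02 in KO. The numbers are not tied to mice in the labels or methods, so they were not taken as pairs. The log2 CPM for likeness used a prior count of 2. For 3 symbols listed more than once, the row was chosen by NCBI gene number. The 8 genes were named in every comparison. From each other list, the genes called (at most 6, by size of change) were named, lists of at most 9 genes were named whole, apart from genes not reported here, and the 3 most alike genes were named for each of the 8. The genes and lists were chosen with earlier results of these data known. Gene positions are from GENCODE M21 on GRCm38, and promoters from RefSeq. The scripts were tested on simulated data. Figures were drawn with matplotlib 3.10.9.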

Additional observations from a re-analysis of the deposited data

Results flagged for a closer look

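The genotype difference differed between eWAT and liver for Vnn1 and for 19 genes of the lists around it. The test was the interaction term of the fit to the 8 libraries together (edgeR, adjusted p under 0.05), which 6.94% of 15587 genes passed. Values are the log2 fold change of KO over WT in eWAT minus that in liver. Vnn1 was at 4.18 (3.37 in eWAT, -0.87 in liver). Among the other PPARα targets the values were 5.24 for Angptl4, 4.99 for Cidec, 4.88 for Plin2, 4.03 for Plin5, 3.26 for Cpt2, 3.07 for Decr1, 3.004 for Mgll, 2.65 for Hadhb, 2.50 for Txnip, 2.19 for Slc25a20 and 2.09 for Acadl. Among receptors and partners they were 4.15 for Klb, 3.64 for Rxrg, 2.87 for Pparg and 2.64 for Rxra, and -2.24 for Fgfr2. Vnn3 was at 4.10, Slc16a1 at 1.62 and Pdhx at 1.56. Adipocyte markers took 0.281% to 0.447% of counts in WT eWAT and 2.36% to 4.85% in KO eWAT, and their part in these values was not tested.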

How the results depend on the processing

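Of the 8 genes in eWAT, 2 were called, against 4 by DESeq2 and 0 with the replicate block, where 0 genes of all were called and 5418 had an unadjusted p under 0.05. Leaving out each library gave 0 to 6. Of all genes 1875 were called in eWAT, 4620 by DESeq2, 3861 with all 8 libraries in one fit, and 0 to 3073 with a library left out. Of these calls 54.6% were higher with TMM, 42.8% with upper-quartile and 35.3% with library-size scaling. The median over all genes was -0.05, -0.25 and -0.35 in turn. With a library left out Ppara ran from -0.21 to 2.87, Creb3l3 from -0.50 to 6.23 and Bdh1 from -2.37 to 2.99 (negative without KO replicate 2), and Oxct1 from -0.16 (without KO replicate 1) to 0.75. In liver 10 genes were called, 311 by DESeq2, 301 without a filter, 82 with the replicate block, 0 with all 8 libraries in one fit or by limma with either pseudocount (1803 and 1801 at an unadjusted p under 0.05), and 1 to 1507 with a library left out. Of the 8 genes, 0 were called, 1 by DESeq2, and 0 to 2 with a library left out. Pdk4 ran from -0.75 (without WT replicate 2) to 1.73, and was at -0.06 without KO replicate 2, where Bdh1 was at 0.0018, against -0.80 at the lowest. For the interaction 1081 genes were called, 2056 by DESeq2, 705 with library-size scaling, 2517 and 2430 by limma with a pseudocount of 1 and 0.1, 1746 with the replicate block, and 0 to 2261 with a library left out. Of the 8 genes, 1 was called, 3 by DESeq2, 2 and 2 by limma, and 0 to 6 with a library left out. Fgf21 ran from -0.32 (without Liver WT replicate 1, and -0.06 without Liver KO replicate 2) to 2.25, and Ppara from -0.60 to 2.50, Creb3l3 from -0.14 to 6.60 and Bdh1 from -2.06 to 3.35 (negative without eWAT KO replicate 2). Between tissues in WT, leaving out a library gave 4285 to 8872 genes and 3 to 7 of the 8, and Pdk4 turned to -0.43 and -0.80 by limma with a pseudocount of 1 and 0.1, to -0.38 without Liver WT replicate 2 and to -0.47 without eWAT WT replicate 2, and was 2.09 at the highest. Between tissues in KO, 7127 genes were called with library-size scaling, against 4330, and 1511 to 5962 with a library left out. Of the 8, DESeq2 called 6, where it called 5210 of all 15587 genes, and Vnn1 turned to 0.30 with library-size scaling. The share of calls that were higher also moved with the scaling, from 54.5% by TMM to 43.5% by upper quartile and 37.2% by library size for the interaction, and from TMM to library size from 63.9% to 90.5% between tissues in WT and from 68.0% to 98.5% in KO. With the replicate block 1 of the 8 was called for the interaction. Between tissues it called 7 in WT (9226 of 15587 genes) and 4 in KO (5165 of 15587 genes). In KO the gene added was Ppara (-3.21, adjusted p = 0.0447). The cause of these shifts was not tested.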

Other observations

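The paralogs of the 8 genes were read beside them in eWAT. Vnn3, the neighbour of Vnn1 on chromosome 10 (chr10:23851462-23869843, GRCm38), was at 5.48 and 3.58 CPM in WT and at 64.7 and 114 CPM in KO, so both vanin genes were higher in both KO libraries (log2 fold change 4.30, SE 0.47, adjusted p = 0.0173). In liver Vnn3 was at 117 and 121 CPM in WT and at 129 and 134 CPM in KO (0.14, SE 0.24, adjusted p = 0.566), whereas Vnn1 was at -0.87 (SE 0.24, adjusted p = 0.164). Creb3l2, a relative of Creb3l3, was lower in eWAT KO (-1.75, SE 0.35, adjusted p = 0.0421). The other pyruvate dehydrogenase kinases were not called in eWAT, with Pdk1 at -1.58 (adjusted p = 0.0726), Pdk3 at -1.63 (adjusted p = 0.0775) and Pdk2 at 0.91 (adjusted p = 0.118). No paralog was called in liver, where edgeR called 0 of the 8 tested and 1 had an unadjusted p under 0.05, against 17.3% of all genes.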
